A study of Mus musculus with 24 samples.

Results

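The genes described here are 10 genes of the glucocorticoid response, chosen by symbol around Zbtb16, which a previous analysis of these data had singled out because its level differed between E4-treated and E2-treated mice. They are Zbtb16, Ddit4, Depp1, Hif3a, Fkbp5, Tsc22d3, Sgk1, Klf9, Nr3c1 and Nr3c2, and they are 10 of the 55421 genes in the count tables. The values that picked the other 9 genes are not recorded in the sources used here. All 10 were found by Ensembl identifier, and all 10 passed the filter on low counts, with between 96 and 14619 counts per gene and library. Because Zbtb16 was selected on the difference between E4 and E2, the E4 against E2 values of all 10 genes are given as a description without a test, and E4 against OVX, E2 against OVX, TAM against E2 and TAM against E4 each share an arm with that selection. TAM against OVX shares no library with it.

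RNA sequencing was performed on uninjured carotid arteries of wild-type C57BL/6 mice aged 9 weeks and treated for 3 weeks according to the labels, whereas the study's methods give a shorter treatment. The 4 groups hold 6 libraries each, every library carrying its own number in its title. The OVX group received placebo, which in the study's methods is a cholesterol pellet placed under the skin of ovariectomized females. The E2 group received pellets with 17β-estradiol and the E4 group pellets with estetrol, a natural estrogen of pregnancy. In the study, the mice sequenced after vehicle or E4 were ovariectomized females. The study also states that its vehicle, E2 and E4 data came from the same experiment. The doses of E2 and E4 differed in amount, and the study's methods set the E4 dose to give an estrogenic effect on the uterus similar to that of E2, so their values stand side by side and their difference is not one of structure at the same dose. The TAM group received tamoxifen, a selective estrogen receptor modulator. The dose and route of tamoxifen, and whether these mice were ovariectomized, are not given in the sources used here. For the E4 libraries the treatment label reads placebo, and their titles put them in the E4 group.

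Glucocorticoids, mainly corticosterone in mice, are steroid hormones of the adrenal gland that bind the glucocorticoid receptor GR, encoded by Nr3c1. The hormone frees the receptor from an Hsp90 chaperone complex, and the receptor enters the nucleus, binds palindromic DNA elements and raises or lowers transcription of target genes. The mineralocorticoid receptor MR (Nr3c2) and the progesterone receptor recognise closely related elements, so that several genes named here are also known to respond to progesterone. In the artery wall, GR is present in endothelial and smooth muscle cells and is known for its part in vascular tone and inflammation. Within the set, Fkbp5 encodes a co-chaperone that lowers the affinity of GR for its hormone, Tsc22d3 encodes the anti-inflammatory leucine zipper protein GILZ, and Zbtb16, Klf9 and Hif3a encode transcription factors. Ddit4 encodes an inhibitor of mTORC1, Sgk1 a kinase of ion transport, and Depp1 a protein induced by progestins and FoxO factors.

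The DNA element itself was looked for in RefSeq promoter windows of 300 bases on GRCm38.p6, each running from 250 bases before to 50 bases after a start site. Windows were on hand for 8 of the 10 genes (15 windows), and neither Zbtb16 nor Nr3c1 had one. The full palindrome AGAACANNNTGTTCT was present in 3 of 32851 windows (0.00913%), and 1 of these belonged to Sgk1, at chr10:21993677-21993739 on the + strand, with the motif 189 to 175 bases before that start site. A looser palindrome, GNACANNNTGTNC, which every full match also contains, was present in 156 windows (0.475%). It was found in 3 of the 5 genes that were most like Zbtb16 in level and had a window (Map3k6, Fam107a and Slc10a6), and in 4 of 34 further glucocorticoid target genes with a window (Fam107a, Map3k6, Mt1 and Txnip). The first group was picked from these same expression values, and Fam107a and Map3k6 belong to both groups. Counted by window, as for the 0.475%, it was in 4 of 7 and 5 of 41. The sequences below show the element in Sgk1, the only one of the 8 genes with a window that held it, and in the Zbtb16-like genes. Capitals mark the motif, and all run 5′ to 3′ on the strand of the gene.
Sgk1: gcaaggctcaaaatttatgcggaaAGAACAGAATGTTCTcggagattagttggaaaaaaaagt
Map3k6: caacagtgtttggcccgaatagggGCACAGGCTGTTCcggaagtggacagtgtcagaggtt
Fam107a: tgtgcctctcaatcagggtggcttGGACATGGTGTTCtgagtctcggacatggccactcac
Slc10a6: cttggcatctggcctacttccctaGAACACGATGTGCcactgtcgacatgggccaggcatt
The Map3k6 stretch lies at chr4:133240613-133240673 (+ strand), that of Fam107a at chr14:8309861-8309921 (- strand) and that of Slc10a6 at chr5:103629530-103629590 (- strand). The estrogen receptor palindrome GGTCANNNTGACC was present in 23 windows (0.07%) and in 0 of the 15 windows of the set. The single 6-base arm of the full palindrome was present in 19% of all windows and in 4 of the 15, those of Sgk1 and Tsc22d3. All motifs were searched on both strands and chosen after the expression values had been seen, and a match is a run of letters, not a bound site.

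Library totals ranged from 24647246 to 64221401 counts, with a median of 45156106, and no 2 libraries held identical values. The labels do not say that the libraries of a group came from separate animals, so p-values measure the spread between these libraries, which may be technical. Levels are given as CPM, counts scaled to a common library total with TMM factors, and a gene passed the test at an adjusted p-value under 0.05 in edgeR's quasi-likelihood test over 25033 genes. Smooth muscle, endothelial and fibroblast marker genes were present in every library, with summed levels of at least 2359, 546 and 5462 CPM. Sympathetic ganglion markers (12 genes) summed to 58 CPM in OVX C5 and 303 CPM in TAM C35, against 2893 to 10324 CPM in the other 22 libraries, so counts of genes are also given without these libraries. B cell markers (10 genes) summed to 7.6 to 46.2 CPM with OVX, 7.1 to 22.1 with E2, 5.49 to 14.6 with TAM and 4.9 to 9.42 with E4. In bulk tissue, fewer cells of a type and less RNA per cell cannot be told apart.

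With E4, 6 of the 10 genes passed the test against OVX, beside 22% of all tested genes. Expression of Zbtb16, Fkbp5, Ddit4, Hif3a and Klf9 rose, and that of Nr3c1 fell. The median log2 fold change of the 10 genes was 0.78, against -0.01 over all tested genes. With TAM, 4 genes passed against OVX, all higher (Zbtb16, Fkbp5, Hif3a and Klf9), beside 2.21% of all tested genes, and the median log2 fold change was 0.76. With E2, 0 of the 10 genes passed against OVX in edgeR or DESeq2, beside 4.16% of all tested genes, 2 had an unadjusted p under 0.05 (Sgk1 and Nr3c2, both lower), and the median log2 fold change was -0.08. Without OVX C5 and TAM C35, the numbers were 7 for E4 and 3 for TAM, beside 5600 and 259 of all 25184 tested genes. The number for TAM fell to 0 without OVX C3 (Zbtb16 at 1.62, edgeR adjusted p = 0.0655), to 1 without TAM C33 and to 2 without TAM C11. The calls over all genes without these single libraries are not given here, so the fall is not read as one of the set. In an exact permutation test of mean log2 CPM, Zbtb16, Hif3a, Fkbp5 and Nr3c1 reached p = 0.00216 with E4 and Fkbp5 with TAM, the smallest value that the test can give with these group sizes. These comparisons share the 6 OVX libraries, whose error moves them together.

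**Figure D1:**
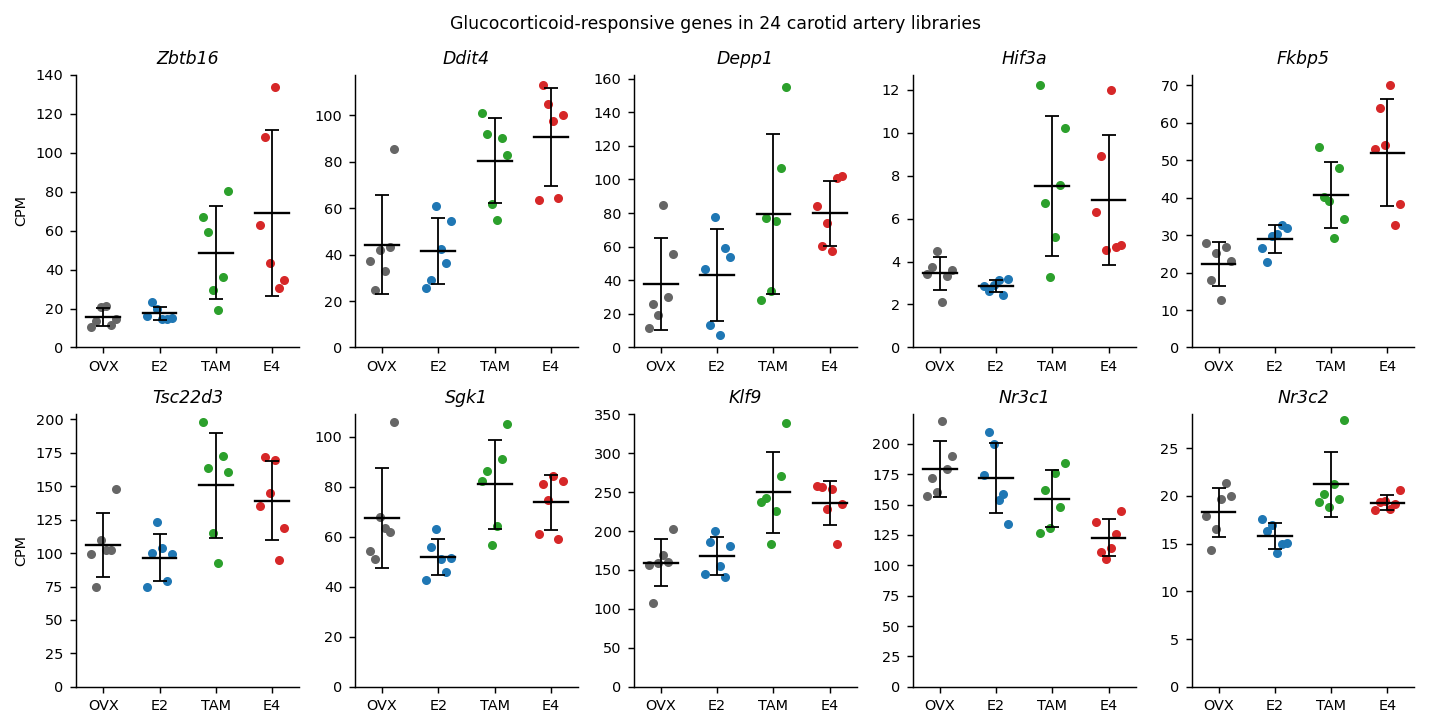
CPM of the 10 genes in the 24 libraries (points), with the mean (line) and SD (bars) of the 6 libraries of each group. The OVX and E2 libraries lie in the same range for Zbtb16, at 10.7 to 23.6 CPM, and 5 of the 6 TAM and all 6 E4 libraries lie above it.

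Among the receptors, Nr3c1 (chromosome 18) fell with E4, and no other of the 10 genes passed the test as lower in E4, E2 or TAM against OVX. Its level had a lowest, median and highest value of 157, 175 and 219 CPM with OVX, 134, 166 and 210 CPM with E2, 127, 155 and 184 CPM with TAM, and 105, 120 and 145 CPM with E4. All 6 E4 libraries lay below all 6 OVX libraries. With E4 the log2 fold change was -0.55 ± 0.12 (SE), a level 0.69 times that of OVX (edgeR adjusted p = 0.00343). With TAM it was -0.21 ± 0.12 (edgeR adjusted p = 0.305), with 3 of 6 TAM libraries below every OVX library. Set directly against E4, TAM differed by 0.33 ± 0.12 on the log2 scale (edgeR adjusted p = 0.349).

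The mineralocorticoid receptor gene Nr3c2 (chromosome 8, 76899442 to 77245012) was far lower than Nr3c1 per length, at 2.88 CPM per kilobase of exon against 20.5 over the 24 libraries. Its exons overlap those of Gm10649, and without a stated strand setting their reads cannot be told apart. The levels were 18.3 ± 2.57 CPM with OVX, 15.8 ± 1.37 with E2, 21.2 ± 3.37 with TAM and 19.3 ± 0.754 with E4 (SD, n = 6 each). Neither E4 (log2 fold change 0.08 ± 0.10) nor TAM (0.21 ± 0.10) passed against OVX, with edgeR adjusted p of 0.583 and 0.204. TAM and E2 did not overlap (0.42 ± 0.10, edgeR adjusted p = 0.00871), and neither did E4 and E2, at 18.5 to 20.6 and 14 to 17.6 CPM.

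Fkbp5, the co-chaperone gene (chromosome 17, 28399094 to 28517527), was the member with the lowest p-value with E4. The lowest, median and highest levels were 12.8, 24.1 and 27.9 CPM with OVX and 22.8, 30 and 32.6 CPM with E2. They were 29.1, 39.6 and 53.6 CPM with TAM and 32.8, 53.5 and 70 CPM with E4. All TAM and all E4 libraries were above all OVX libraries, and all E4 libraries were above all E2 libraries. The log2 fold change was 1.22 ± 0.19 with E4, a 2.33-fold rise (edgeR adjusted p = 0.000373), and 0.87 ± 0.19 with TAM, a 1.82-fold rise (edgeR adjusted p = 0.0234). The TAM call was lost without any one of OVX C3, TAM C11 and TAM C33, with edgeR adjusted p of 0.0738, 0.0537 and 0.0593. With E2 it was 0.38 ± 0.19 (edgeR adjusted p = 0.336), with 4 of 6 E2 libraries above every OVX library and an unadjusted exact permutation p of 0.0433.

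Zbtb16 (chromosome 9, 48654297 to 48836222), which encodes the zinc finger transcription factor PLZF, had the largest log2 fold change of the 10 genes with E4 and with TAM. The lowest, median and highest levels were 10.7, 14.3 and 21.4 CPM with OVX and 14.8, 15.8 and 23.6 CPM with E2. With TAM they were 19.2, 47.9 and 80.2 CPM, and with E4 30.4, 53.3 and 134 CPM. The OVX and E2 libraries were close together, whereas the highest library was 4.17 times the lowest with TAM and 4.43 times with E4, against 1.99 with OVX and 1.6 with E2. All E4 libraries lay above all OVX and all E2 libraries, while TAM C32 (19.2 CPM) lay inside the OVX range. The log2 fold change against OVX was 2.16 ± 0.36 with E4, a 4.47-fold rise (edgeR adjusted p = 0.000592), and 1.65 ± 0.35 with TAM, a 3.14-fold rise (edgeR adjusted p = 0.0218). The direct comparison of TAM with E4 gave -0.51 ± 0.34 (edgeR adjusted p = 0.711), an error that leaves room for a difference in either direction.

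Hif3a (chromosome 7, 17031507 to 17062427), of the hypoxia-inducible factor family, was the lowest of the set per length, at 0.77 CPM per kilobase. Its lowest, median and highest levels were 2.11, 3.51 and 4.48 CPM with OVX and 2.43, 2.89 and 3.2 CPM with E2. With TAM they were 3.3, 7.14 and 12.2 CPM, and with E4 4.53, 5.52 and 12 CPM. Only the lowest TAM library, C13, lay inside the OVX range. The log2 fold change was 0.99 ± 0.27 with E4, a 1.99-fold rise (edgeR adjusted p = 0.0125), and 1.12 ± 0.27 with TAM, a 2.17-fold rise (edgeR adjusted p = 0.0337). The TAM value was 0.91 and no longer passed without OVX C5 and TAM C35 (edgeR adjusted p = 0.0845), and it also missed the threshold without any one of OVX C3, C5 and C24 and TAM C11, C12 and C33.

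Klf9 (chromosome 19, 23141226 to 23168134), a Krüppel-like factor gene, had a high level. Its highest library was 1.87 times the lowest with OVX, 1.42 with E2, 1.84 with TAM and 1.4 with E4. The lowest, median and highest levels were 108, 160 and 202 CPM with OVX, 141, 168 and 200 CPM with E2, 184, 240 and 339 CPM with TAM, and 184, 245 and 258 CPM with E4. In TAM and in E4, 5 of 6 libraries lay above every OVX library. Klf9 rose by a log2 fold change of 0.57 ± 0.14 with E4 (edgeR adjusted p = 0.00704) and 0.65 ± 0.14 with TAM (edgeR adjusted p = 0.0219), rises of 1.48-fold and 1.57-fold. The TAM call was lost without OVX C3 (edgeR adjusted p = 0.0619) or TAM C33 (edgeR adjusted p = 0.0559).

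Tsc22d3 (chromosome X, 140539528 to 140600659), the GILZ gene, did not pass against OVX. Its levels were 106 ± 23.9 CPM with OVX, 96.6 ± 17.5 with E2, 151 ± 39.1 with TAM and 139 ± 29.8 with E4 (SD, n = 6 each). With E4 the difference was 0.40 ± 0.18 on the log2 scale (edgeR adjusted p = 0.116, and 0.046 without OVX C25) and 0.51 ± 0.18 with TAM (edgeR adjusted p = 0.114). TAM passed against E2 (0.64 ± 0.18, edgeR adjusted p = 0.0351), and the call was lost when any one of E2 C6, C8 and C27 and TAM C11, C12 and C33 was left out, with adjusted p of 0.0656 to 0.093.

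The mTORC1 inhibitor gene Ddit4 (chromosome 10, 59949669 to 59951834) rose with E4. The lowest, median and highest levels were 24.6, 39.6 and 85.4 CPM with OVX, 25.5, 39.4 and 61 CPM with E2, 54.7, 86.4 and 101 CPM with TAM, and 63.6, 98.8 and 113 CPM with E4. A single OVX library, C25, reached into the TAM and E4 ranges, and the other OVX libraries stayed at or below 43.2 CPM. It rose by 1.03 ± 0.26 (log2) with E4, a 2.05-fold rise (edgeR adjusted p = 0.00747), and with TAM the value was 0.86 ± 0.26 (edgeR adjusted p = 0.066). Without OVX C25 the TAM value was 1.16 and passed (edgeR adjusted p = 0.0135).

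Sgk1 (chromosome 10, 21882184 to 21999903), the gene with the full palindrome printed above, did not pass against OVX in any group. It was at 67.4 ± 19.8 CPM with OVX, 51.8 ± 7.2 with E2, 81 ± 17.8 with TAM and 73.8 ± 11 with E4 (SD, n = 6 each). The log2 fold changes were 0.13 ± 0.16 with E4, 0.26 ± 0.16 with TAM and -0.38 ± 0.16 with E2 (edgeR adjusted p of 0.587, 0.362 and 0.229). OVX C25 was again the highest of its group, at 106 CPM. Against E2, Sgk1 was higher with TAM (0.64 ± 0.16, edgeR adjusted p = 0.018).

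Depp1 (chromosome 6, 116650609 to 116652794) had the highest level per length, 44.2 CPM per kilobase, and the largest standard errors of the set against OVX. It ranged from 11.5 to 84.6 CPM with OVX, from 7.13 to 77.5 with E2, from 28.4 to 155 with TAM and from 57.1 to 102 with E4. The log2 fold changes of 1.08 ± 0.51 with E4 and 1.07 ± 0.51 with TAM did not pass (edgeR adjusted p of 0.127 and 0.229). The E4 value was of the size seen for Ddit4, with a larger error, and it passed without OVX C5 (edgeR adjusted p = 0.0476).

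**Figure D2:**
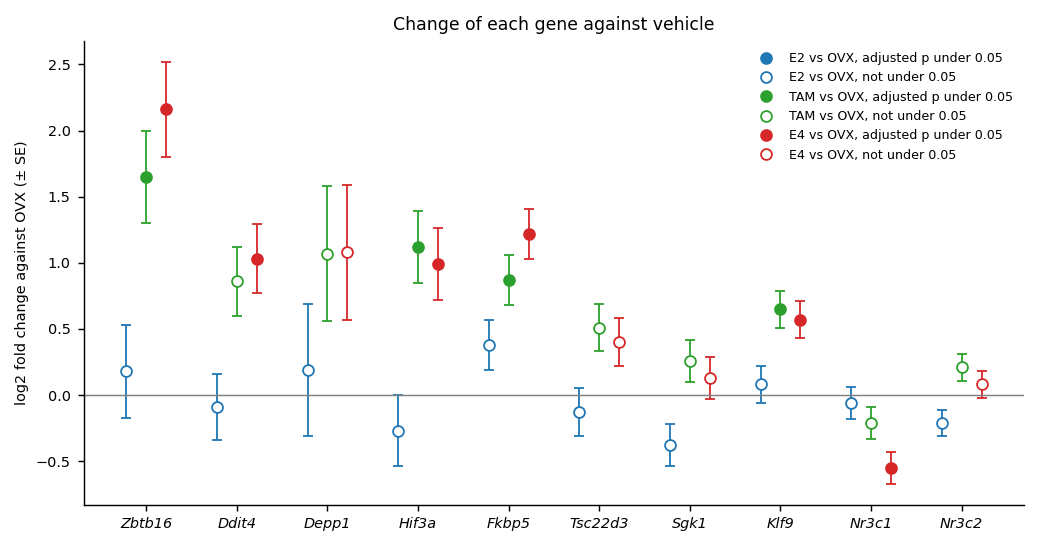
Log2 fold change of each gene against OVX (points) with its SE (bars) for E2, TAM and E4, filled where the adjusted p-value was under 0.05. E4 and TAM values lie above 0 for every gene except Nr3c1, and no E2 point is filled.

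By mean CPM, the order of the groups was E4, TAM, E2, OVX for Zbtb16, Depp1 and Fkbp5, and TAM, E4, OVX, E2 for Hif3a, Tsc22d3, Sgk1 and Nr3c2. Ddit4 followed E4, TAM, OVX, E2 and Klf9 TAM, E4, E2, OVX, whereas Nr3c1 ran in the order OVX, E2, TAM, E4. The E4 and TAM means of Depp1 were nearly equal (79.7 and 79.5 CPM), and by median Klf9 was higher with E4 (245 CPM) than with TAM (240 CPM). Between E2 and OVX, and between TAM and E4, 0 of the 10 genes passed in edgeR or DESeq2, which does not show that these groups were alike. Between TAM and E4, 1 gene (Nr3c1) had an unadjusted p under 0.05, and 0.34% of all tested genes passed. TAM against E2 had 7 genes past the test, all higher with TAM (Zbtb16, Ddit4, Hif3a, Tsc22d3, Sgk1, Klf9 and Nr3c2), beside 6.44% of all tested genes. Their log2 fold changes ran from 0.42 for Nr3c2 to 1.48 for Zbtb16, which was 2.78-fold higher. Without OVX C5 and TAM C35 the number was 8, beside 3335 of all 25184 tested genes. The Ddit4 call was lost when any one of E2 C6, C8 and C27 and TAM C11, C12 and C33 was left out.

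The E4 against E2 values, from which Zbtb16 had been taken, are given as a description. Zbtb16 was 3.95-fold higher with E4 (log2 1.98 ± 0.36), Hif3a 2.40-fold (1.26 ± 0.27), Ddit4 2.18-fold (1.13 ± 0.26) and Fkbp5 1.80-fold (0.84 ± 0.19). In these 4 genes and in Nr3c2 no E2 library reached the lowest E4 library. How many of all tested genes lay apart in this way was not counted. Depp1, Tsc22d3, Sgk1, Klf9 and Nr3c2 were 1.22-fold to 1.85-fold higher, and Nr3c1 stood at 0.72 times its E2 level. In this comparison 12.5% of all tested genes passed, from which nothing is read for the set.

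The levels can also be described library by library for the 8 genes other than the receptors. Zbtb16, chosen on E4 against E2, is among them, so the counts below are a description. Each gene was ranked over the 24 libraries, and the genes ranked in the upper 12 were counted. E4 libraries had 5 to 8 of the 8 genes there, TAM libraries 4 to 8, OVX libraries 0 to 4 and E2 libraries 0 to 3. OVX C25 held the 4 of its group, and TAM C13 and C32, at 4 each, were the lowest TAM libraries. The same count over other genes was not made. Nr3c1, left out here, ran the opposite way, with its lowest levels in E4 (105 to 145 CPM).

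A list of 40 further genes known as glucocorticoid targets was examined in the same fit, of which 39 were tested and Tat was not. With E4, 9 were higher and 3 lower than with OVX, beside 22% of all tested genes that passed, and the median log2 fold change was 0.32, against -0.01 over all genes. With the mean of the adipocyte, ganglion or B cell markers in the fit, 15 (14 higher), 17 (16 higher) and 2 (2 higher) passed. Of all genes 5382, 4641 and 92 passed in these fits, against 5514. The largest rise was that of Fam107a, which encodes an actin-associated protein, at 44.6 ± 13.8 CPM against 15.7 ± 4.65 with OVX (SD over 6 libraries) and without overlap (a 2.83-fold rise, edgeR adjusted p = 0.000209). Mt2, a metallothionein gene, rose from 9.28 ± 3.09 to 19.2 ± 4.13 CPM (1.05 ± 0.21, edgeR adjusted p = 0.00187), and Map3k6, a MAP kinase kinase kinase gene, from 12.7 ± 3.17 to 24.5 ± 6.12 CPM (0.95 ± 0.20, edgeR adjusted p = 0.00273). Dusp1, a phosphatase gene that glucocorticoids are known to induce, fell from 150 ± 30 to 67 ± 19.5 CPM without overlap (-1.16 ± 0.23, edgeR adjusted p = 0.00207). Galnt15, Acer2, Nfkbia, Mfsd2a, Tgm2 and Irs2 were the other genes that rose, and Ccnd2 and Cdkn1c the others that fell.

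With TAM, 2 of the 39 passed against OVX, both higher, beside 2.21% of all tested genes, and the median log2 fold change was 0.27. Leaving out a library gave 1 to 4, with 1 without any one of OVX C2, C3 and C24 and TAM C11, C12, C33 and C35, and 4 without OVX C25. The count was 7 with DESeq2, 10 with the adipocyte mean and 9 with the ganglion mean in the fit, settings in which 1628, 582 and 1405 of all genes passed, against 553. The 2 genes were Fam107a, at 42.8 ± 11.8 CPM (1.44 ± 0.22, edgeR adjusted p = 0.00263), and Map3k6, at 22 ± 6.97 CPM (0.79 ± 0.20, edgeR adjusted p = 0.0392). With E2, 4 passed, all higher, beside 4.16% of all tested genes, and the median was 0.10. The count was 8 without OVX C5 and TAM C35 (7 higher), 7 with DESeq2 (6 higher) and 11 with the ganglion mean in the fit (9 higher), settings in which 1667, 1549 and 2135 of all genes passed, against 1041. The 4 genes were the decoy receptor gene Il1r2 (1.59 ± 0.26), the macrophage scavenger receptor gene Cd163 (0.89 ± 0.18), Tgm2 (0.82 ± 0.18) and Galnt15 (0.81 ± 0.19), with edgeR adjusted p of 0.000368, 0.00283, 0.0065 and 0.011. Il1r2 and Cd163 did not pass with E4 (0.31 and 0.02), and both were lower with E4 than with E2 (-1.28 ± 0.26 and -0.87 ± 0.18, edgeR adjusted p of 0.00313 and 0.003). All 10 macrophage markers were higher with E2 than with OVX, and the list summed to 992 to 1501 CPM with E2, against 582 to 1057 with OVX, 548 to 758 with TAM and 423 to 790 with E4. Their part in the Cd163 and Il1r2 values was not tested.

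Across the remaining comparisons of the list, 8 genes were higher and 4 lower with E4 than with E2, beside 12.5% of all tested genes, with a median of 0.08. The 12 genes were 6 without E2 C6, 7 without E2 C8, 7 without E2 C9 and 5 without E4 C19. Besides Il1r2 and Cd163, the genes with the lowest adjusted p were Thbd, the thrombomodulin gene (-0.61 ± 0.15, edgeR adjusted p = 0.0117), and Irs2, an insulin receptor substrate gene (0.77 ± 0.20, edgeR adjusted p = 0.0163). TAM against E2 had 3 higher and 2 lower, beside 6.44% of all tested genes, with a median of 0.24. The clock gene Per1 rose from 58.1 ± 13.2 to 109 ± 44.3 CPM (0.91 ± 0.22, edgeR adjusted p = 0.0127) and Klf15 from 31.5 ± 5.74 to 54.7 ± 17.5 CPM (0.79 ± 0.19, edgeR adjusted p = 0.0145), while Cd163 and Il1r2 were lower (-0.90 ± 0.18 and -1.04 ± 0.25, edgeR adjusted p of 0.00243 and 0.0135). The TAM against E2 count moved with the setting. It was 12 (5 higher) without OVX C5 and TAM C35. With the adipocyte, ganglion and clock means in the fit it was 10 (9 higher), 14 (8 higher) and 10 (3 higher). In these settings 3335, 1247, 3362 and 5123 of all genes passed, against 1612. TAM against E4 had 0 genes past the test in edgeR or DESeq2, and 3 with an unadjusted p under 0.05.

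**Figure D3:**
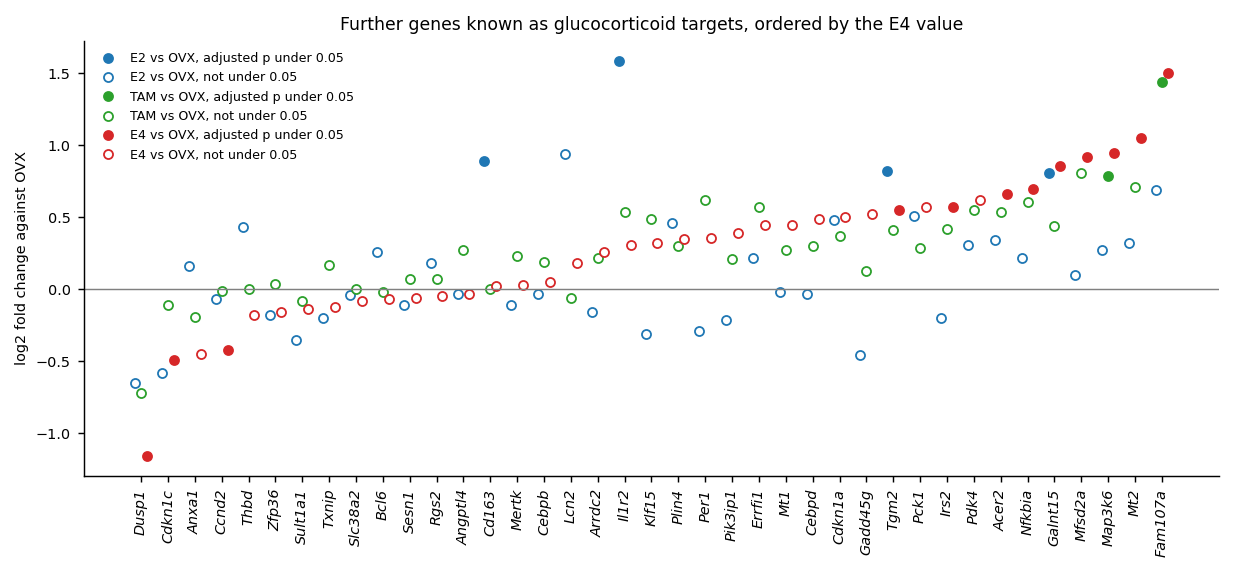
Log2 fold change against OVX of the 39 further target genes with E2, TAM and E4, ordered by the E4 value and filled where the adjusted p-value was under 0.05. Fam107a, at 1.44 with TAM, has the highest E4 value and Dusp1, at -1.16, the lowest.

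Genes that handle the hormone and its receptor were also described. Hsd11b1 encodes the enzyme that regenerates active glucocorticoid within cells, and it rose from 29.2 ± 8.11 CPM with OVX to 46.9 ± 6.53 with E4 and 49.7 ± 7.68 with E2 (log2 0.68 ± 0.18 and 0.77 ± 0.18, edgeR adjusted p of 0.0121 and 0.0148). With TAM it was at 30.9 ± 9.96 CPM (0.08 ± 0.18, edgeR adjusted p = 0.84), and TAM was lower than E2 (-0.69 ± 0.18, edgeR adjusted p = 0.0253). H6pd, which supplies the cofactor of that enzyme, rose with E4 (0.47 ± 0.14, edgeR adjusted p = 0.0216). Of the 12 genes of hormone supply, 8 were tested, and Serpina6, Cyp11b1, Cyp21a1 and Hsd3b1 were not. Of 20 genes for receptor chaperones and coregulators, 7 were higher and 0 lower with E4, 1 higher with E2 and 2 higher with TAM, beside 22%, 4.16% and 2.21% of all tested genes. Smarca4, a chromatin remodeler gene, rose with E4 (0.68 ± 0.12, edgeR adjusted p = 0.00105), and Crebbp, a histone acetyltransferase gene, rose with E4 (0.36 ± 0.06, edgeR adjusted p = 0.00105) and TAM (0.30 ± 0.06, edgeR adjusted p = 0.0215). Nrip1 rose with E2 (0.52 ± 0.09, edgeR adjusted p = 0.000829) and Ep300 with TAM (0.34 ± 0.08, edgeR adjusted p = 0.0259).

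Genes for other steroid receptors moved in separate ways. Pgr, the progesterone receptor gene and a known estrogen target, was at 4.02 ± 0.854 CPM with OVX and 8.77 ± 1.83 with E2 (1.12 ± 0.17, edgeR adjusted p = 0.000174). It was at 6.63 ± 1.94 CPM with TAM (0.72 ± 0.17, edgeR adjusted p = 0.0327) and at 4.93 ± 0.419 with E4 (0.29 ± 0.17, edgeR adjusted p = 0.226). Esr1, the gene for ERα, fell from 46.5 ± 10.2 CPM with OVX to 25.6 ± 3.3 with E4 (-0.86 ± 0.13, edgeR adjusted p = 0.000282) and 31.7 ± 3.88 with TAM (-0.55 ± 0.13, edgeR adjusted p = 0.0286). With E2 it was at 35.9 ± 5.39 CPM (-0.37 ± 0.13, edgeR adjusted p = 0.107). Esr2 was not tested.

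Several of the 10 genes are known to answer to FoxO factors, hypoxia or the circadian clock. With E4, where 22% of all tested genes passed, 3 of 15 FoxO target genes were higher and 1 lower, a share close to that of all genes, among them Foxo3 (0.71 ± 0.17, edgeR adjusted p = 0.00551) and Ccng2 (-0.37 ± 0.08, edgeR adjusted p = 0.00402). With TAM, where 2.21% of all genes passed, 1 did, Foxo1 (0.55 ± 0.14, edgeR adjusted p = 0.0403). Of 16 hypoxia response genes, 3 were higher and 1 lower with E4, again close to the 22% of all genes, with Pfkfb3 at 0.63 ± 0.19 (edgeR adjusted p = 0.0251) and Vegfa at -0.53 ± 0.15 (edgeR adjusted p = 0.0178). Of 16 clock genes, 1 passed with E4 against OVX, Clock (-0.51 ± 0.09, edgeR adjusted p = 0.000714), while TAM against E2 had 5 higher, beside 6.44% of all tested genes, Per1 and Nr1d1 (0.75 ± 0.18, edgeR adjusted p = 0.0155) among them. The clock list summed to 950 to 1224 CPM with OVX, 767 to 1021 with E2, 899 to 1794 with TAM (median 1141, highest in C35) and 947 to 1364 with E4, and its part in the values of the 10 genes was not tested beyond a fit that included its mean, chosen after the data had been seen, in which 7 genes passed with E4 and 5 with TAM, beside 5349 and 2248 of all 25033 genes. Of 12 immediate early genes, 3 fell with E4, close to the 22% of all genes, namely Dusp1, Fos (-1.08 ± 0.35, edgeR adjusted p = 0.0307) and Atf3.

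Markers of the cell types and tissues that the samples could hold were counted in the same way. In E4 against OVX, where 22% of all tested genes passed, 9 of 10 B cell, 1 of 10 T cell, 2 of 10 macrophage and 5 of 8 fibroblast markers were lower. Of 10 adipocyte markers 1 was higher and 3 lower, of 8 endothelial markers 1 was higher and 1 lower, and of 8 smooth muscle markers 1 was higher. The macrophage, T cell, endothelial and smooth muscle counts were close to or below that share. In TAM against OVX, where 2.21% of all tested genes passed, 2 B cell markers and 1 adipocyte marker were lower, while 2 fibroblast, 1 smooth muscle and 1 endothelial marker were higher. When the mean of the B cell list was added to the fit, 2 of the 10 genes passed with E4, Zbtb16 (log2 2.67, edgeR adjusted p = 0.00356) and Fkbp5 (1.16, edgeR adjusted p = 0.047), and 1 with TAM, Zbtb16 (2.00, edgeR adjusted p = 0.0486). The log2 fold changes of the genes whose calls were lost with E4 were 0.74 for Ddit4, 1.06 for Hif3a, 0.53 for Klf9 and -0.40 for Nr3c1, and with TAM 1.18 for Hif3a, 0.82 for Fkbp5 and 0.63 for Klf9. In that fit 92 of all 25033 genes passed with E4 and 17 with TAM. The part of the B cell, fibroblast and other marker values in the changes of the 10 genes was not tested beyond these fits. No ganglion or skeletal muscle marker passed in any comparison in edgeR. Skeletal muscle markers summed to 41.9 to 298 CPM and the 4 tested of 8 thyroid and parathyroid markers to 4.71 to 41.2 CPM, and Pax8, Pth, Gcm2 and Casr were not tested. T cell markers summed to 350 CPM in E2 C9, with an E2 median of 12.7 and a lowest value of 8.7 CPM, and to at most 49.9 CPM in the OVX, TAM and E4 libraries, and all 10 were lower with E4 than with E2.

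The genes whose levels followed Zbtb16 most closely were ranked by Pearson's r of log2 CPM over the 24 libraries, among 19475 other genes with a mean of at least 1 CPM. The 24 points share group means and library composition, so r is a description. Outside the set, Map3k6 (r = 0.90), the transcription factor gene Zhx3 (0.86), Fam107a (0.84), Mt2 (0.82), the cell cycle kinase gene Wee1 (0.81) and Slc10a6, a transporter of steroid sulfates (0.81), were the 6 highest. Within the set, Hif3a ranked 3 of all genes (0.85), Klf9 9 (0.80), Tsc22d3 13 (0.78), Fkbp5 20 (0.76) and Ddit4 31 (0.73). Sgk1 (0.62), Nr3c2 (0.48) and Depp1 (0.46) were less close, and Nr3c1 ran the opposite way (-0.55). After the group means were removed, Map3k6 stayed the closest gene (0.78), followed by Klf15 (0.77), Slc10a6 (0.75), Zhx3 (0.74), Gm43064 (0.72) and Emsy (0.70). In the set, Hif3a and Tsc22d3 kept 0.68 each, Klf9 0.51 and Sgk1 0.50, whereas Fkbp5 (0.33), Ddit4 (0.27) and Nr3c2 (0.14) were lower and Nr3c1 (0.05) and Depp1 (0.00) were near 0.

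The levels of these genes across the groups were fixed in part by that choice, so they are given as a description. Zhx3 was at 66.1 ± 6.39 CPM with OVX, 78.8 ± 8.62 with E4 and 82.1 ± 8.93 with TAM. Wee1 was at 7.12 ± 0.991, 10.7 ± 2.51 and 12.2 ± 3.85 CPM in these groups, and Slc10a6 at 3.51 ± 1.2, 5.26 ± 1.5 and 5.9 ± 2.01 CPM (SD, n = 6 each). With E2, Zhx3, Wee1 and Slc10a6 were at 65.9, 6.92 and 3.62 CPM. Of the genes named after the group means were removed, Klf15 was at 39, 48.7 and 54.7 CPM with OVX, E4 and TAM. In the same order Gm43064 was at 12.2, 11.6 and 11.3 CPM and Emsy at 41.7, 38.4 and 43.3 CPM.

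**Figure D4:**
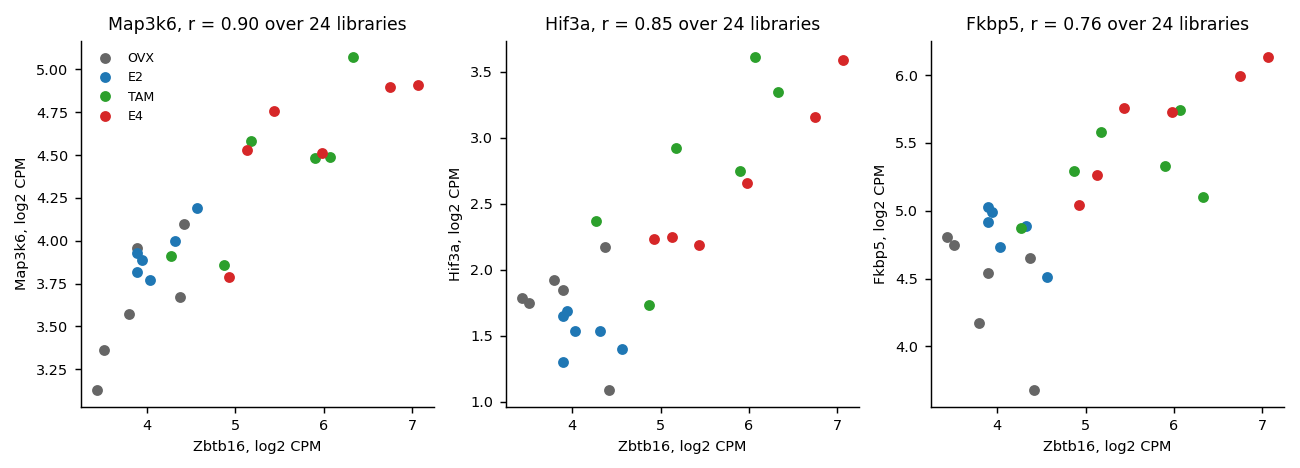
Log2 CPM of Map3k6, Hif3a and Fkbp5 against log2 CPM of Zbtb16 in the 24 libraries, coloured by group. OVX and E2 libraries lie at the lower left and most TAM and E4 libraries at the upper right, with r of 0.90, 0.85 and 0.76.

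The numbers in the titles fell in a first series (2 to 20) and a second series (24 to 39), and in each the groups followed the same order, OVX, E2, TAM and E4. Group and number order therefore cannot be told apart, and what the numbers stand for is not given in the sources used here. With E4 against OVX, the log2 fold change of Zbtb16 was 2.10 in the first series (3 E4 and 4 OVX libraries, edgeR adjusted p = 0.0124) and 2.35 in the second (3 and 2 libraries, edgeR adjusted p = 0.259). Fkbp5 was 1.44 and 0.92, Hif3a 0.92 and 1.06, and Nr3c1 -0.59 and -0.52, and in these 4 genes the groups did not overlap in either series. In the second series their edgeR adjusted p ran from 0.235 to 0.351. With 3 against 2 libraries, groups can lie apart without any difference. How many of all tested genes lay apart was not counted. Ddit4 was 1.45 and 0.45, Klf9 0.74 and 0.32, and Tsc22d3 0.64 and 0.04, and their groups did not overlap in the first series and overlapped in the second. In the first series 5 of the 10 genes passed with E4, where 3073 of all 25409 tested genes passed. In the second, 0 passed, 4 had an unadjusted p under 0.05, and 5 of all 25498 tested genes passed. With TAM against OVX, Zbtb16 was 1.63 and 1.80 and Fkbp5 1.06 and 0.58, without overlap in either series, but 0 of the 10 genes passed in either series, with 7 and 3 at an unadjusted p under 0.05, where 1 and 0 of all tested genes passed. Between TAM and E2, 0 of the 10 genes passed in either series, where 1164 and 115 of all tested genes passed. Of the 10, 7 and 7 had an unadjusted p under 0.05 there.

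**Figure D5:**
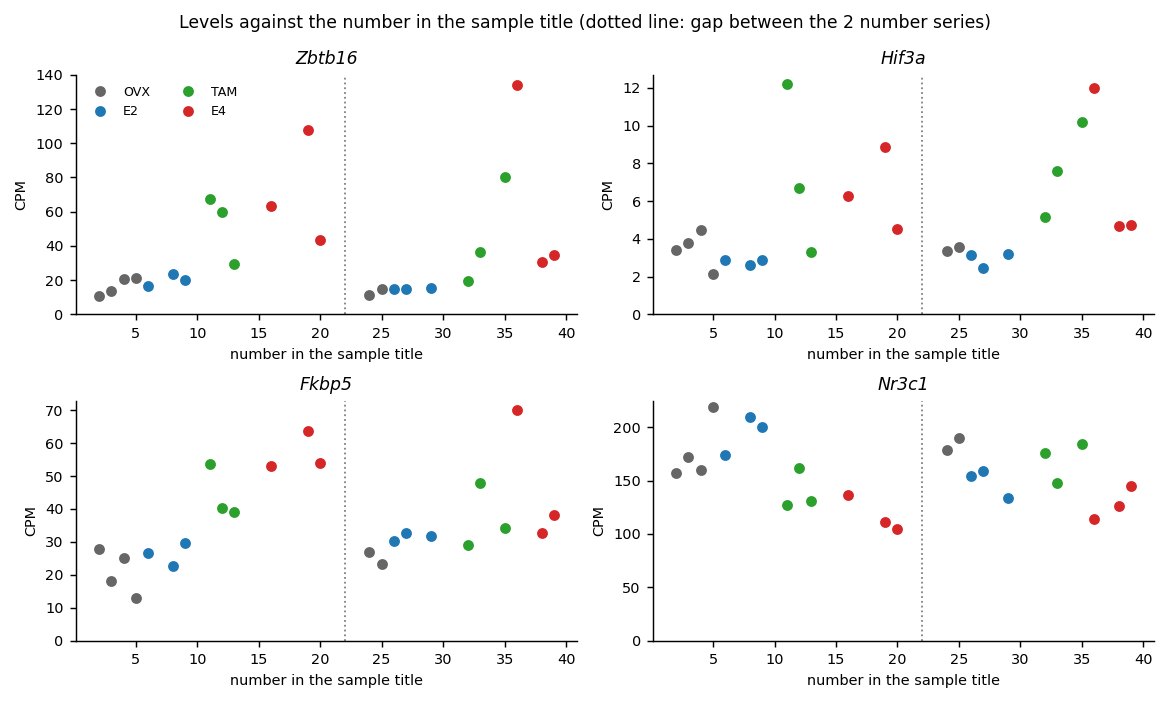
CPM of Zbtb16, Hif3a, Fkbp5 and Nr3c1 against the number in the sample title, coloured by group, with a dotted line between the number series. In each series the groups follow each other along the axis, and the highest Zbtb16 level, 134 CPM, is E4 C36 in the second.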

How the data were processed

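RNA sequencing libraries (stranded mRNA kit, paired reads) were made from carotid artery in 24 samples. Per the labels, the authors used bcl2fastq 2.17, Trim Galore, Bowtie2 and featureCounts with mm10/GRCm38. Their versions other than 2.17 and the strand setting are not given in the sources used here. The authors deposited estimated counts per gene, without normalization, of which 8.87% to 9.8% per library carried decimals. They were rounded, and genes were named with GENCODE M21 (55240 of 55421 matched). No molecular identifiers were used, so PCR copies were counted as reads.

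All 24 libraries entered a single fit in edgeR 4.0.16 (R 4.3.3) with TMM scaling, the default filter on low counts, the quasi-likelihood test and Benjamini-Hochberg adjustment, checked on simulated data. Standard errors came from the F statistic. Log2 CPM used a prior count of 1. Alternatives included DESeq2 1.42.0 and a 2-sided exact permutation test of 6 against 6 libraries. Figures used Python 3.11.15.

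The 10 genes and all lists were chosen with earlier results of these data known. Named genes were the 10, the 6 most like Zbtb16 (with and without group means), up to 4 of the glucocorticoid targets and up to 2 of each pathway list with the lowest adjusted p per comparison, and Hsd11b1, Per1, Pgr and Esr1. A further gene of this rule is not reported here. Other names were added after their values were seen. Marker lists covered smooth muscle, endothelial cells, fibroblasts, adipocytes, skeletal muscle, sympathetic ganglion, B cells, T cells, macrophages, and thyroid and parathyroid.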

Additional observations from a re-analysis of the deposited data

Results flagged for a closer look

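Dixon's ratio for the highest or lowest of 6 libraries passed its 95% limit in 3 of 44 sets of values, where chance alone would give about 2.2 (1 in 20). The OVX library C25 held 85.4 CPM of Ddit4, and the remaining OVX libraries 24.6 to 43.2 (ratio 0.694). The same library held 106 CPM of Sgk1, and the remaining ones 51 to 68 (ratio 0.689). The TAM library C35, which also had few ganglion markers, held 27.9 CPM of Nr3c2, and the remaining TAM libraries 18.8 to 21.2 (ratio 0.735). The causes were not tested.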

How the results depend on the processing

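No paired analysis was possible because the groups share no replicate numbers. The fits with the skeletal muscle, clock and immediate early gene means were chosen after seeing the data. The tally covers each printed log2 fold change of the 10 genes. It sets the unadjusted p of the exact permutation test against the same 0.05 as the adjusted p-values, and the calls gained in E2 against OVX and TAM against E4 come from that test. Under the alternatives tried, E4 against OVX kept direction and side of the threshold in 266, lost the call in 14, gained it in 8 and reversed in 2, and for TAM against OVX the numbers were 243, 30, 7 and 0. TAM against E2 had 236, 37, 5 and 2. E2 against OVX kept 86 and gained 1, TAM against E4 kept 55 and gained 1, and of the E4 against E2 values 278 moved by less than the spread and 2 by more. The reversals were Sgk1 (-0.15) and Nr3c2 (-0.08) in E4 against OVX in the second number series, and Nr3c1 in TAM against E2 in that series (0.20) and with the adipocyte list mean (0.02). The causes were not tested.

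Of the 10 genes, 6 passed in E4 against OVX, 0 in the second number series, 3 with the study's fold threshold and 2 with the B cell mean. In TAM against OVX 4 passed, 0 with only those groups in the fit (6 at an unadjusted p under 0.05), 0 in the first series, 0 in the second, 2 with the fold threshold and 1 with the B cell mean. In TAM against E2 7 passed, 0 in either series and 2 with the fold threshold. Leaving out a library gave 6 to 7, 0 to 5 and 5 to 7, and 0 to 0 for E2 against OVX and TAM against E4.

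Of the 39 targets, 12 passed in E4 against OVX, 0 in the second series, 3 with the fold threshold and 2 with the B cell mean. In E2 against OVX 4 passed, 7 with DESeq2, 1 and 0 in the series, 1 with the fold threshold, 7 with the adipocyte mean, 11 with the ganglion mean, 7 with the clock mean and 8 without OVX C5 and TAM C35. In TAM against OVX 2 passed, 7 with DESeq2, 1 without the filter, 1 with only those groups, 1 with the series as a covariate, 0 in either series, 1 with the fold threshold, and with the adipocyte, ganglion, B cell, skeletal muscle and clock means 10, 9, 1, 1 and 5. In E4 against E2 12 passed, 0 in the second series, 1 with the fold threshold and 4 with the B cell mean. In TAM against E2 5 passed, 3 and 0 in the series, 1 with the fold threshold, 10, 14 and 10 with the adipocyte, ganglion and clock means, and 12 without OVX C5 and TAM C35. That omission gave 1 in TAM against E4. Leaving out a library gave 9 to 14, 4 to 5, 1 to 4, 5 to 15, 4 to 7 and 0 to 0 in these comparisons. Over all genes the calls, in the order E4, E2 and TAM against OVX, then E4 against E2, TAM against E2 and TAM against E4, were 5514, 1041, 553, 3134, 1612 and 85. They were 629, 318, 77, 618, 413 and 49 with the fold threshold. Shifts over 1.5 times were 1628 (TAM against OVX) and 204 (TAM against E4) with DESeq2, 207 without the filter, 39 with only those groups (TAM against OVX) and 5348 (E4 against E2). In the first series E4 against OVX had 3073, E2 against OVX 340, TAM against OVX 1 and TAM against E4 1. In the second, E4 against OVX had 5, E2 against OVX 92, TAM against OVX 0, E4 against E2 0, TAM against E2 115 and TAM against E4 17. The B cell mean left 92 in E4 against OVX, 17 in TAM against OVX and 684 in E4 against E2. Without OVX C5 and TAM C35, TAM against OVX had 259, E2 against OVX 1667, E4 against E2 6467 and TAM against E2 3335. The ganglion mean gave 1405 in TAM against OVX, 2135 in E2 against OVX, 3362 in TAM against E2 and 134 in TAM against E4, the clock mean 2248 in TAM against OVX, 7932 in E4 against E2 and 5123 in TAM against E2, and the adipocyte mean 1712 in E4 against E2 and 174 in TAM against E4.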
